A study of Homo sapiens with 6 samples.

Results

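The AP-1 transcription factor family was examined in T24 cells, a long-used human bladder carcinoma cell line, after knockdown of KNSTRN. The family was taken as 10 genes (FOS, FOSB, FOSL1, FOSL2, JUN, JUNB, JUND, ATF3, BATF3 and MAFF), and all 10 were found among the 20442 genes of the deposited count table. Cells that had attached for 24 h were then treated for a further 24 h with si-KNSTRN, an siRNA directed at KNSTRN, or with the control si-NC. Each group held 3 RNA-seq libraries, which the submitters call biological replicates. All libraries came from 1 cell line at 1 time point. Whether si-KNSTRN was a single siRNA or a pool is not given in the sources used here.

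AP-1 is a dimer of basic leucine zipper (bZIP) proteins: a leucine zipper holds the partners together and the basic region of each contacts DNA. JUN proteins can pair with each other, whereas FOS proteins need a JUN partner, and ATF3, BATF3 and the small MAF protein MAFF belong to neighbouring bZIP groups. Several of these genes are immediate early genes, whose transcripts appear quickly after growth factor, cytokine or stress signals and are short-lived. In epithelial cancers FOSL1 (the gene of FRA-1) is known as a late, longer-lasting member tied to ERK signalling and invasive behaviour.

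The libraries held 16386799 to 20596074 counted reads, and 3 reads corresponded to 0.148 to 0.187 CPM (reads scaled to library size with TMM factors). KNSTRN itself was down to 269, 245 and 226 reads in the si-KNSTRN libraries, against 777, 663 and 762 reads in the si-NC libraries. The keratin genes KRT7, KRT8 and KRT18 lay between 812 and 1253 CPM in every library, whereas the epithelial and urothelial genes CDH1 and UPK3A had no read and EPCAM stayed below 1 CPM in all 6. Of 4 immune markers, PTPRC, CD3E and LYZ had at most 2 reads in any library, CD3E none. The fourth, CD68, a lysosomal protein gene of macrophages that other cells also express, was called higher, at 45.4 ± 1.29 CPM in si-KNSTRN cells and 32.6 ± 2.81 in si-NC cells (SD, n = 3 each; log2 fold change 0.48, adjusted p = 1.1e-05 by edgeR). The 4 summed to 44.5 to 46.9 CPM in si-KNSTRN libraries and 29.7 to 35.3 CPM in si-NC libraries, nearly all of it CD68, and the part of such cells in the results was not tested. A total of 12650 genes passed the low-count filter, and many of them differed: edgeR's quasi-likelihood test called 31.2% higher and 31.3% lower (Benjamini-Hochberg adjusted p under 0.05).

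Transcripts of the AP-1 family were more abundant in si-KNSTRN cells. Of the 10 members, 9 were called higher, none lower, and JUND was not called, against 31.2% of all tested genes called higher. All 10 passed the low-count filter, and none had a log2 fold change below 0 with edgeR, DESeq2 or limma-voom. The median log2 fold change of the 10 was 0.68, beside -0.01 over all genes tested. In all 10, including JUND, every si-KNSTRN library lay above every si-NC library, a separation in that direction seen in 33.4% of tested genes. Of the 9 called higher, 6 had an estimated rise of at least 1.5-fold (FOS, FOSB, JUNB, BATF3, MAFF and ATF3). Among tested genes 8.40% were called higher with such an estimate. The calls are against no change, so a rise of at least 1.5-fold was not itself tested. The members were listed with earlier results of these data known, so these shares are a description. In bulk RNA, more cells with a transcript and more transcript per cell cannot be told apart.

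**Figure D1:**
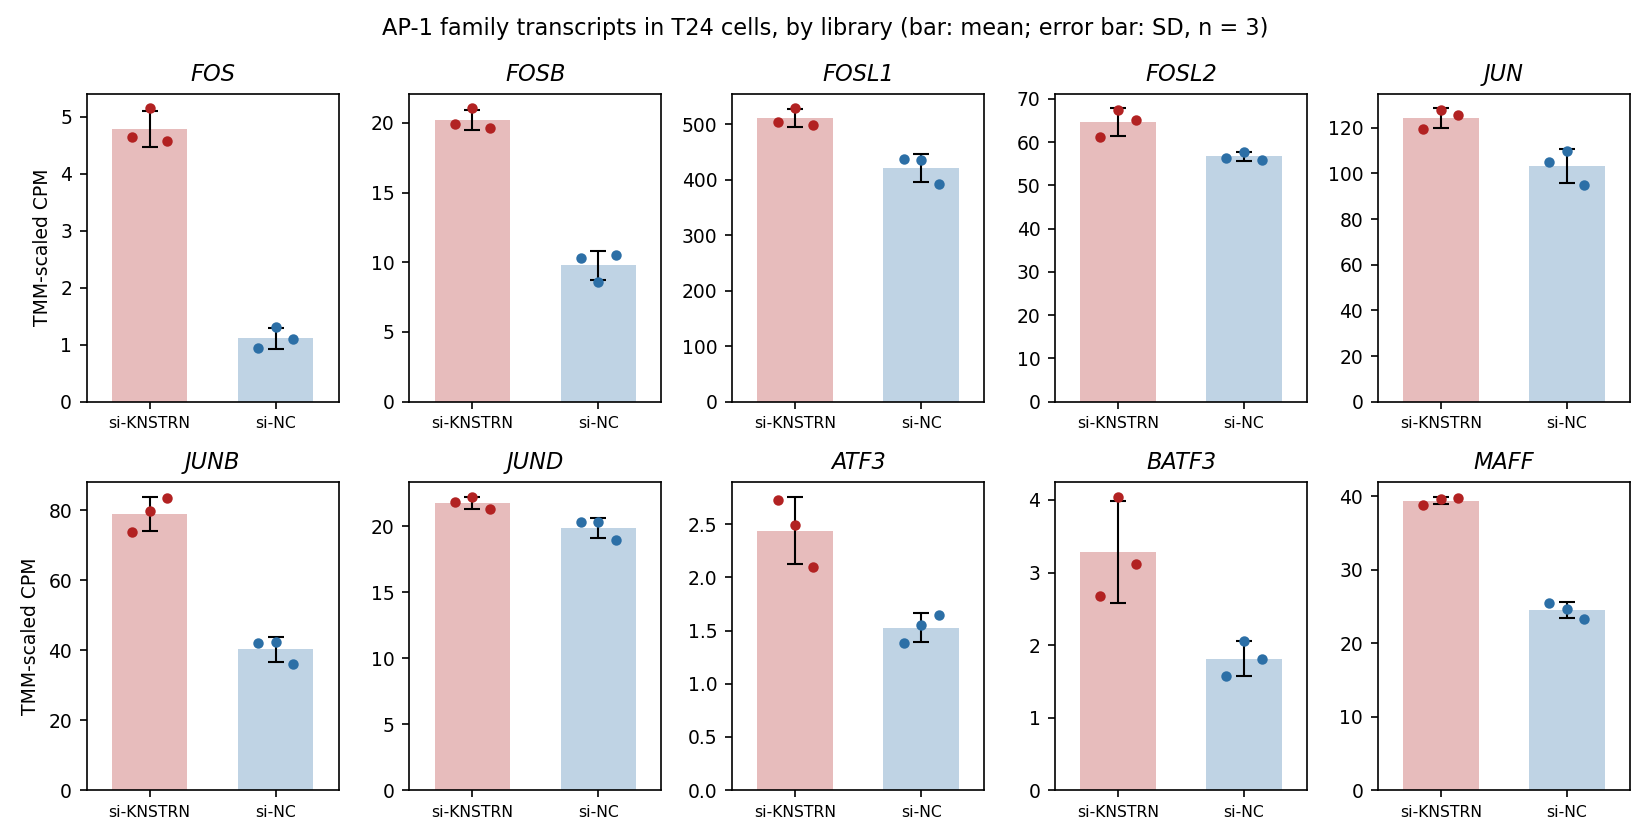
TMM-scaled CPM of the 10 AP-1 family genes in each of 3 si-KNSTRN and 3 si-NC libraries (points), with the mean (bar) and SD (error bar); each panel has its own vertical axis starting at 0. In all panels the 3 si-KNSTRN points lie above the 3 si-NC points, with the widest relative gap for FOS (4.79 CPM in si-KNSTRN and 1.11 CPM in si-NC cells on average) and the narrowest for JUND (21.8 CPM in si-KNSTRN and 19.8 CPM in si-NC cells).

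The start regions of the members are shown because several of these genes are textbook examples of promoters with cyclic AMP response elements (CRE) or JUN/ATF sites. RefSeq promoter sequences (GRCh38.p14) were matched by symbol for 8 of the 10 members. Each line gives the 210 bases before the annotated start, 5′ to 3′ on the gene's strand, with TGACG (the CRE half-site, CGTCA when read on the other strand) and TGACNTCA in capitals. For ATF3 and MAFF, which have 2 starts in the table, the first is shown.
FOS, chr14:75278618-75278827, plus strand: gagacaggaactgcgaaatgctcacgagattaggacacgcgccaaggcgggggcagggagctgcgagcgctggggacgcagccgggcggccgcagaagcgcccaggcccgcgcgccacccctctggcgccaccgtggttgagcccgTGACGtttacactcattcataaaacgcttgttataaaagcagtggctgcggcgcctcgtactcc
FOSB, chr19:45467786-45467995, plus strand: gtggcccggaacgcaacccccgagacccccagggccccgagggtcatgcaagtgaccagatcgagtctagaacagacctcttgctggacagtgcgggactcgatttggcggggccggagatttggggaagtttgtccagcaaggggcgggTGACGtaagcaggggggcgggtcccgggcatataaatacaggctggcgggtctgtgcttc
FOSL2, chr2:28392648-28392857, plus strand: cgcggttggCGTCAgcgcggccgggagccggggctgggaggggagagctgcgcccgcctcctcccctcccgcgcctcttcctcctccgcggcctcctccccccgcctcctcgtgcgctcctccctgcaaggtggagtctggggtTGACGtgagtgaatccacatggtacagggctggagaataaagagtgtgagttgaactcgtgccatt
JUNB, chr19:12791276-12791485, plus strand: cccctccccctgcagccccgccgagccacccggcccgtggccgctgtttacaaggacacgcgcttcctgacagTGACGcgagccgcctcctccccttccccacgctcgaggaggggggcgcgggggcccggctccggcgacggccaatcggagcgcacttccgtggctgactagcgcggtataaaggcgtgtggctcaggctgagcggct
JUN, chr1:58784048-58784257, minus strand: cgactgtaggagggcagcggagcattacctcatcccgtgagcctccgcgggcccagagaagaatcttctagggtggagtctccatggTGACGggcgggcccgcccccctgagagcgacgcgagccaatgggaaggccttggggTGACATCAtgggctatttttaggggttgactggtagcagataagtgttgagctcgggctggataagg
ATF3, chr1:212565197-212565406, plus strand: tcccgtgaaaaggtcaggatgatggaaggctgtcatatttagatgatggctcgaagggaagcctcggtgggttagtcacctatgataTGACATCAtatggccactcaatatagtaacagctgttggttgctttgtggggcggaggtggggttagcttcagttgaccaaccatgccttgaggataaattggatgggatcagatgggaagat
MAFF, chr22:38201784-38201993, plus strand: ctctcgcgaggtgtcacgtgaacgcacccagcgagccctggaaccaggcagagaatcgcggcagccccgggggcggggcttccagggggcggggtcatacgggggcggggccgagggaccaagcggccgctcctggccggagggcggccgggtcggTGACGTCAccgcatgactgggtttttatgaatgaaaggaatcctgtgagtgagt
JUND, chr19:18281623-18281832, minus strand: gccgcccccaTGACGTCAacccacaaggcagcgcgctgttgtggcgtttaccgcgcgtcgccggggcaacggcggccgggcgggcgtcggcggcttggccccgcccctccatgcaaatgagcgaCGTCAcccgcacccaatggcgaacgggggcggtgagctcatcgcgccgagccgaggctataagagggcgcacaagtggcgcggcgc

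On both strands of the 250 bases before the start, 7 of the 8 members with a sequence held TGACG (FOS, FOSB, FOSL2, JUN, JUNB, JUND and MAFF), a word present at 1 start or more in 35.6% of 10272 tested genes with a sequence. Counted by start, 7 of the members' 10 held it, beside 27.4% of 15032 promoters of tested genes. TGACG is also part of TGACGTCA, so the 2 words overlap. In FOS it began 64 bases and in FOSB 60 bases before the start. The full palindrome TGACGTCA occurred in JUND and in MAFF, and in 3.42% of these tested genes. JUN and ATF3 held TGACATCA, 67 and 123 bases before the start, in ATF3 only at its first start. TGACNTCA, which covers both forms, was present in 7.52% of these tested genes. Counted by start, 4 of the members' 10 held TGACNTCA, beside 5.52% of promoters of tested genes. The second starts of ATF3 and MAFF did not hold it. JUND, which was not called, thus held the same words as members that rose. The AP-1 site TGANTCA, the STAT site TTCNNNGAA and the CArG box of serum response factor were absent from these windows in all 8 members. They occurred in 6.27%, 7.70% and 1.47% of these tested genes. Sequence farther than 250 bases before the start was not searched, so their absence covers no site beyond that, in FOS or any other member. A loose kB-like word (GGG and CC spaced by 5 bases of any kind) was found in 5 of the 8 (FOS, FOSB, JUN, JUND and MAFF), beside 76.6% of these genes. TGACG and TGACNTCA were searched after the letters had been read. These are letter matches in short windows and carry no measurement of binding.

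In the FOS subfamily, the gene with the lowest level changed most. FOS (chromosome 14, 75278828 to 75282230, GRCh38), the founding partner of JUN, had 92, 93 and 85 reads in the si-KNSTRN libraries, against 19, 21 and 20 reads in the si-NC libraries. Scaled, that was 4.65, 5.15 and 4.58 CPM in si-KNSTRN cells and 0.936, 1.31 and 1.10 CPM in si-NC cells. The groups were far apart and each was tight. The log2 fold change was 2.11 (SE 0.18, adjusted p = 3.6e-08 by edgeR), which ranked FOS 79 of 12650 tested genes by size of rise. Per kilobase of exon FOS stayed scarce, at 1.63 ± 0.107 CPM per kb in si-KNSTRN cells and 0.379 ± 0.0632 in si-NC cells (SD, n = 3 each).

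FOSB (chromosome 19, 45467996 to 45475179), a FOS paralog that is likewise induced early, had 19.9, 21.1 and 19.7 CPM in si-KNSTRN cells, against 10.3, 8.58 and 10.5 CPM in si-NC cells. Its level about doubled and the groups did not overlap. The log2 fold change was 1.04 (SE 0.09, adjusted p = 4.0e-08 by edgeR). FOSL1 (chromosome 11, 65892049 to 65900545) had 504, 529 and 499 CPM in si-KNSTRN cells and 438, 435 and 392 CPM in si-NC cells. Its rise was modest but larger than the spread between libraries (log2 fold change 0.28, SE 0.05, adjusted p = 0.00017 by edgeR). FOSL2 (chromosome 2, 28392858 to 28417317), the gene of FRA-2, had 61.1, 67.5 and 65.2 CPM in si-KNSTRN cells, against 56.4, 57.8 and 55.9 CPM in si-NC cells. This was the smallest rise that passed the test (log2 fold change 0.19, SE 0.05, adjusted p = 0.0036 by edgeR).

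In the JUN subfamily, JUNB changed most and JUND least. JUNB (chromosome 19, 12791486 to 12793315), which pairs with FOS proteins and is a weaker activator than JUN in many settings, had 73.9, 79.7 and 83.6 CPM in si-KNSTRN cells, against 42.0, 42.5 and 36.2 CPM in si-NC cells. The log2 fold change was 0.97 (SE 0.06, adjusted p = 1.8e-09 by edgeR), the smallest p of the 10 members. JUN (chromosome 1, 58780791 to 58784047), the founding member and main target of JUN N-terminal kinases, had 120, 128 and 125 CPM in si-KNSTRN cells and 105, 110 and 94.9 CPM in si-NC cells. Its groups were separate but close (log2 fold change 0.27, SE 0.05, adjusted p = 0.00037 by edgeR). JUND (chromosome 19, 18279694 to 18281622), a broadly and steadily expressed paralog, had 21.8, 22.2 and 21.3 CPM in si-KNSTRN cells, against 20.3, 20.3 and 19.0 CPM in si-NC cells. Its log2 fold change was 0.13 (SE 0.07), with a 95% interval of 2.7e-05 to 0.27. This interval is a normal multiple of the SE and is narrower than the test allows for. JUND missed the threshold (adjusted p = 0.098 by edgeR). With library size alone as the scaling, JUND passed it (adjusted p = 0.040; 0.040 to 0.26 over 15 alternatives).

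The 3 members outside the FOS and JUN subfamilies rose by similar amounts. MAFF (chromosome 22, 38201994 to 38216511), a small MAF protein without an activation domain, had 38.8, 39.7 and 39.7 CPM in si-KNSTRN cells, against 25.5, 24.6 and 23.4 CPM in si-NC cells (log2 fold change 0.69, SE 0.06, adjusted p = 9.6e-08 by edgeR). ATF3 (chromosome 1, 212565407 to 212620777), a stress-induced factor that often represses, had 54, 45 and 39 reads in the si-KNSTRN libraries, against 28, 25 and 30 reads in the si-NC libraries. BATF3 (chromosome 1, 212686417 to 212699840), best known for its part in dendritic cell development in mice, had 53, 73 and 58 reads in the si-KNSTRN libraries, against 32, 33 and 33 reads in the si-NC libraries. Both are low-count genes whose groups were separate and whose errors were wide. The log2 fold change was 0.68 (SE 0.19, adjusted p = 0.0055 by edgeR) for ATF3 and 0.86 (SE 0.20, adjusted p = 0.0011) for BATF3. JUNB overlaps the tested gene HOOK2 in RefSeq coordinates, and MAFF overlaps TMEM184B. In the overlapping stretch, reads of such pairs cannot be told apart without strand. The log2 fold change was -0.18 for HOOK2 and 0.27 for TMEM184B, and the part of reads from the overlaps was not tested.

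**Figure D2:**
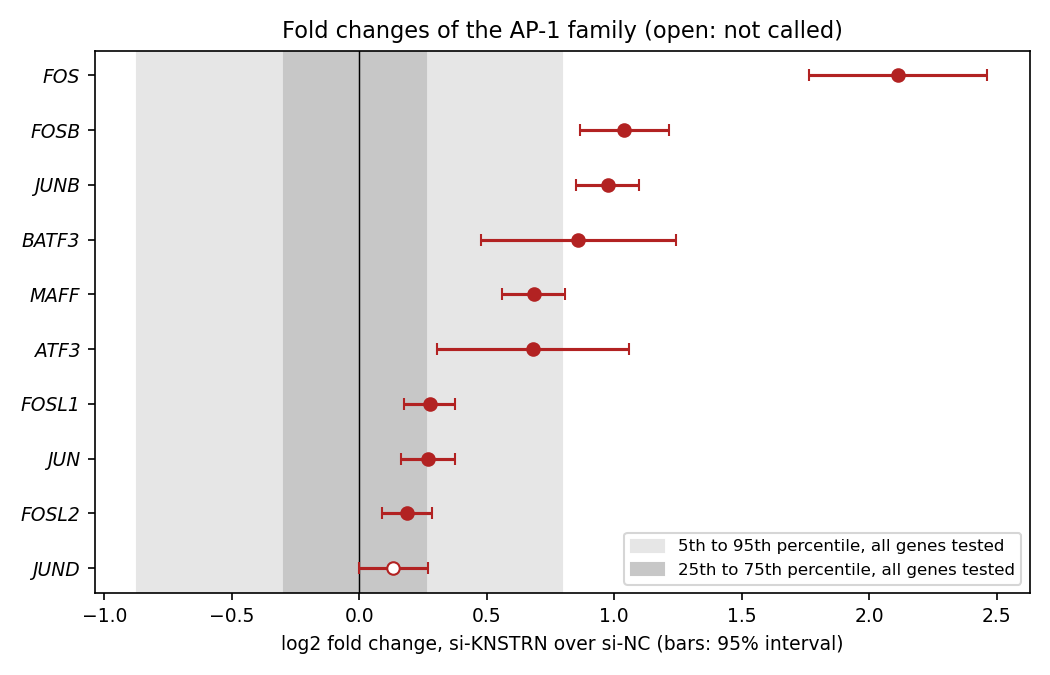
Log2 fold change of each AP-1 family gene, si-KNSTRN over si-NC (edgeR; bars, 95% interval; open point, not called), over shaded bands with the middle 50% (-0.30 to 0.26) and the 5th to 95th percentile (-0.87 to 0.79) of all 12650 tested genes. FOS at 2.11 stands clear of the other 9, FOSB, JUNB and BATF3 lie past the 95th percentile, and FOSL1, JUN, FOSL2 and JUND lie near or inside the middle band.

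By fold change the members fell into an order in which many neighbours overlapped. The 95% interval of FOS (1.76 to 2.46) did not meet that of any other member. Those of FOSB (0.87 to 1.21), JUNB (0.85 to 1.10) and BATF3 (0.48 to 1.24) overlapped each other, and BATF3, MAFF and ATF3 also overlapped. That of ATF3 (0.30 to 1.06) was wide enough to reach the low end. FOSL1, JUN, FOSL2 and JUND formed the low end, with intervals that ended at or below 0.38 and all overlapped.

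Levels of different genes were compared per kilobase of exon (GENCODE 29 lengths), which gave another order. FOSL1 led in both groups, at 278 ± 8.79 CPM per kb in si-KNSTRN cells and 229 ± 13.7 in si-NC cells (SD, n = 3 each). JUNB came next in si-KNSTRN cells at 43.4 ± 2.66 CPM per kb, ahead of JUN at 35.1 ± 1.20. In si-NC cells JUNB was at 22.1 ± 1.91 CPM per kb and JUN, at 29.1 ± 2.13, was ahead of it. The 2 genes thus changed places between the groups, with no overlap of their libraries within either group. MAFF and JUND changed places as well: MAFF was at 14.3 ± 0.193 CPM per kb in si-KNSTRN cells and 8.89 ± 0.387 in si-NC cells, and JUND at 11.7 ± 0.242 in si-KNSTRN cells and 10.7 ± 0.413 in si-NC cells. These 2 exchanges rest on the division by length. In plain CPM every JUN library lay above every JUNB library in both groups, and every MAFF library above every JUND library. FOSL2 followed at 9.51 ± 0.474 CPM per kb in si-KNSTRN cells and 8.34 ± 0.143 in si-NC cells, where its libraries overlapped those of MAFF. FOSB, BATF3, FOS and ATF3 were all below 4 CPM per kb in the means of both groups. FOSB and BATF3 overlapped in both groups. FOS lay above ATF3 in si-KNSTRN cells (1.63 against 0.962 CPM per kb) and below it in si-NC cells (0.379 against 0.602), without overlap in either.

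Because FOSL1 was so abundant, its small fold change made the largest difference in amount. The summed level of the 10 members was 401 ± 11.7 CPM per kb in si-KNSTRN cells and 313 ± 18.4 in si-NC cells (SD, n = 3 each). FOSL1 made up 54.8% of the difference between these means, JUNB 24.2%, JUN 6.77% and MAFF 6.13%. FOS, with the largest fold change, made up 1.42%. Without division by length, an alternative added after seeing the data, the shares of the summed CPM difference were 46.8% for FOSL1, 20.4% for JUNB, 11.1% for JUN, 7.84% for MAFF and 1.93% for FOS.

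FOSL1 kept nearly all of the FOS subfamily in both groups, whereas the balance within the JUN subfamily shifted. FOSL1 was 95.1%, 94.9% and 94.9% of the FOS subfamily per kb in si-KNSTRN libraries 1 to 3, against 95.8%, 95.7% and 95.3% in si-NC libraries 1 to 3. FOS was 0.558% ± 0.0184 in si-KNSTRN cells and 0.159% ± 0.0269 in si-NC cells (SD, n = 3 each). JUNB was 47.2%, 47.7% and 49.5% of the JUN subfamily per kb in si-KNSTRN libraries, against 36.3%, 35.8% and 35.0% in si-NC libraries. JUN was 38.9% ± 0.639 in si-KNSTRN cells and 47.1% ± 0.478 in si-NC cells, and JUND 13.0% ± 0.626 in si-KNSTRN cells and 17.2% ± 0.604 in si-NC cells. These shares depend on the lengths used: in plain reads JUN stayed ahead of JUNB in both groups, with JUNB at 35.1% in si-KNSTRN cells and 24.6% in si-NC cells. The higher JUNB share in si-KNSTRN cells was present on both scales.

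**Figure D3:**
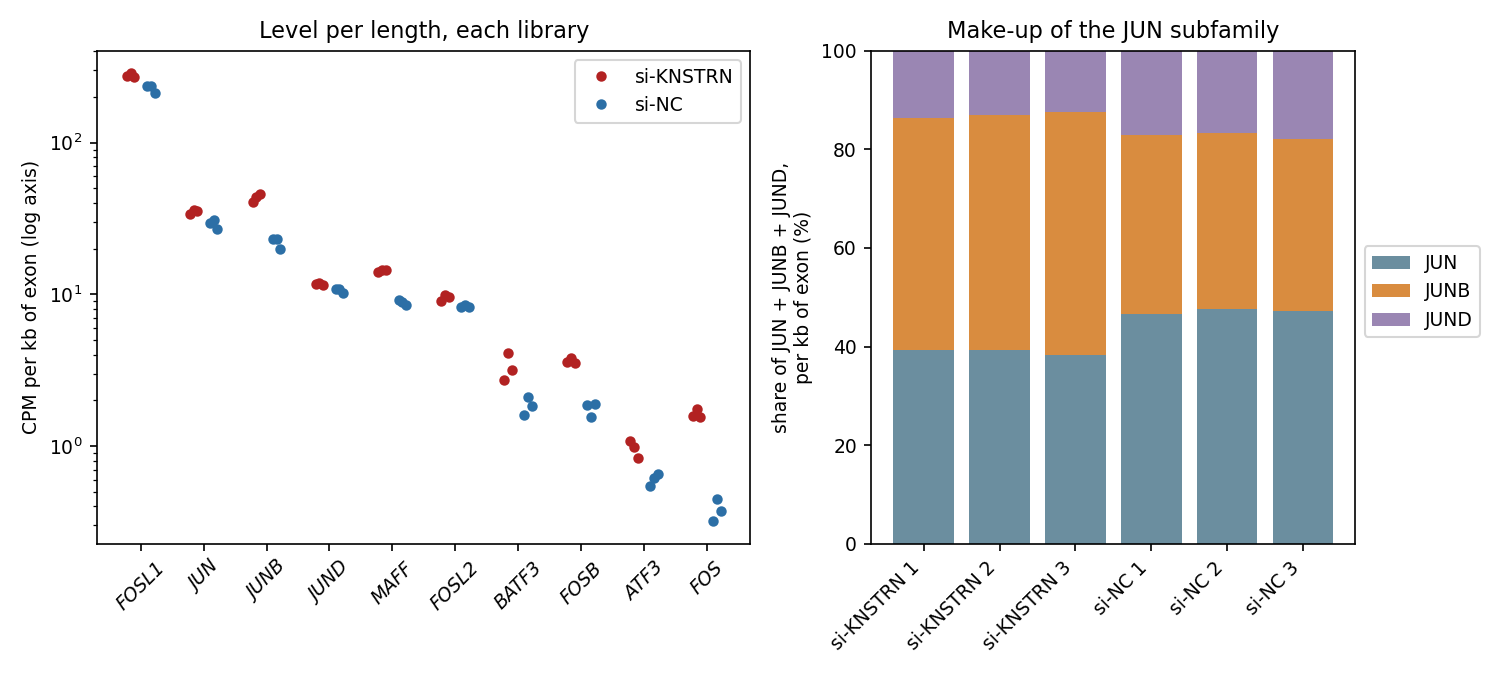
Left, CPM per kb of exon for each AP-1 family gene and library on a log axis (si-KNSTRN left of si-NC); right, share of JUN, JUNB and JUND in their summed level per kb in each library. FOSL1 lies far above all other members in both groups, and JUNB takes 47.2% to 49.5% of the JUN subfamily in si-KNSTRN libraries, against 35.0% to 36.3% in si-NC libraries.

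Immediate early transcripts often carry AU-rich elements, built on the word ATTTA, in the 3′ untranslated region, where they are bound by factors that control decay. All 10 members held ATTTA there in 1 GENCODE 29 transcript per gene, beside 69.4% of 11793 tested genes with such a region. The longer word TATTTAT was present in 8 of the 10 (not in JUNB or BATF3), beside 32.3% of these genes. In tested genes called higher the share with TATTTAT was 34.2%, and in those called lower 30.8%. The members' regions had a median length of 1014 bases, close to the 1022 bases of all these genes. The search for these words was not planned beforehand, and the members were listed with earlier results known, so these shares are a description. The 30 bases densest in ATTTA are shown for the members with 2 copies in such a stretch, with ATTTA in capitals.
FOS: tgtgtttttaATTTATTTAttaagatggat
MAFF: ggctcctagaATTTATTTAtttcctgactt
FOSL2: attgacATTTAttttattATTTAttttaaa

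FOS and MAFF carried overlapping copies, and FOSL2 carried a spaced pair. Over the whole region FOSL2 had 9 ATTTA words, FOS 5 and MAFF 4, and all of them had 2 TATTTAT words. FOSB and FOSL1 each had 1 TATTTAT word. JUNB had 2 ATTTA words and no TATTTAT in 500 bases. Transcript decay was not measured, and a link between these words and the fold changes was not tested.

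Other bZIP genes of the AP-1 type were called in both directions. Of 12 listed, 6 passed the low-count filter, and 3 of these were higher, 2 lower and 1 not called, with a median log2 fold change of 0.01. Over all tested genes 31.2% were higher and 31.3% lower, so that counts this small do not set these 6 apart. CREB5 (8.14 ± 0.535 CPM in si-KNSTRN cells, 5.41 ± 0.511 in si-NC cells) and the small MAF gene MAFK (12.7 ± 0.718 CPM in si-KNSTRN cells, 9.86 ± 0.215 in si-NC cells) rose, as did MAFG, a close relative of MAFF (log2 fold change 0.27, adjusted p = 0.022 by edgeR). ATF2, a JUN partner that binds CRE sites, fell to 35.4 ± 2.00 CPM in si-KNSTRN cells, against 47.3 ± 1.91 in si-NC cells, and its relative ATF7 fell to 2.94 ± 0.231 CPM in si-KNSTRN cells, against 4.34 ± 0.346 in si-NC cells (SD, n = 3 each). The AP-1 antagonist JDP2 was at 6.62 ± 0.314 CPM in si-KNSTRN cells and 7.84 ± 0.788 in si-NC cells and was not called. BATF, BATF2, MAF, MAFA and NRL had at most 15 reads in any library.

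Of the genes that signal to AP-1 or control its turnover, 7 of 23 tested were higher, 6 lower and 10 not called, with a median log2 fold change of 0.07. These counts lie near the shares of all tested genes (31.2% higher, 31.3% lower). RPS6KA3, the gene of the ERK-activated kinase RSK2, rose to 88.8 ± 0.709 CPM in si-KNSTRN cells, against 64.6 ± 5.15 in si-NC cells (SD, n = 3 each). Of the JUN N-terminal kinase genes, MAPK9 rose by a log2 fold change of 0.24 (adjusted p = 0.00041 by edgeR) and MAPK8, at 29.5 CPM in si-KNSTRN cells and 29.6 CPM in si-NC cells, was not called (adjusted p = 0.96). Serum response factor, which acts on the FOS promoter, and its cofactor gene MRTFB fell: the log2 fold change was -0.34 for SRF (SE 0.08, adjusted p = 0.0025) and -0.51 for MRTFB (SE 0.08, adjusted p = 1.7e-05 by edgeR). Of the ternary complex factor genes, whose proteins join SRF at that promoter, ELK1 rose by a log2 fold change of 0.23, ELK3 fell by 0.16 on the log2 scale and ELK4 was not called. TRIB1, a pseudokinase gene that works with the ubiquitin ligase COP1, rose to 11.8 ± 0.446 CPM in si-KNSTRN cells, against 6.08 ± 0.429 in si-NC cells. DET1, a partner of COP1 in the breakdown of JUN, fell by 0.91 on the log2 scale (SE 0.18, adjusted p = 0.00032 by edgeR), whereas COP1 itself was not called.

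Among genes known as AP-1 targets, more were called higher than lower. The list was written with earlier results of these data known, so its counts are a description. Of 32 listed, 28 were tested, of which 23 were higher, 4 lower and 1 not called, with a median log2 fold change of 0.93, beside 31.2% higher, 31.3% lower and a median of -0.01 over all tested genes. MMP3, MMP10 and SPP1 had at most 9 reads in any si-NC library and passed the low-count filter only through the si-KNSTRN libraries, so that they could not have counted as lower. Of the other 25, a subset taken after seeing the data, 20 were higher, 4 lower and 1 not called, with a median of 0.89. The 4 with the smallest p were SERPINB2, CXCL8, IL6 and MMP1. The interstitial collagenase gene MMP1 had 927, 847 and 1038 reads in the si-KNSTRN libraries, against 21, 18 and 31 reads in the si-NC libraries. IL6, an inflammatory cytokine gene, had 317 ± 8.61 CPM in si-KNSTRN cells and 80.0 ± 3.35 in si-NC cells (SD, n = 3 each). Targets of other kinds moved with them: the cyclin D1 gene CCND1 had a log2 fold change of 0.83, the EGF receptor ligand gene HBEGF 1.81 and the urokinase receptor gene PLAUR 0.90. Among the genes called lower were VEGFA, CD44 and EZR, and the urokinase gene PLAU was not called. VEGFA, an angiogenic factor gene, fell to 111 ± 11.2 CPM in si-KNSTRN cells, against 204 ± 5.26 in si-NC cells (SD, n = 3 each). Many of these genes are also targets of NF-kB and other factors, and whether AP-1 proteins bound or acted on them was not tested.

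**Figure D4:**
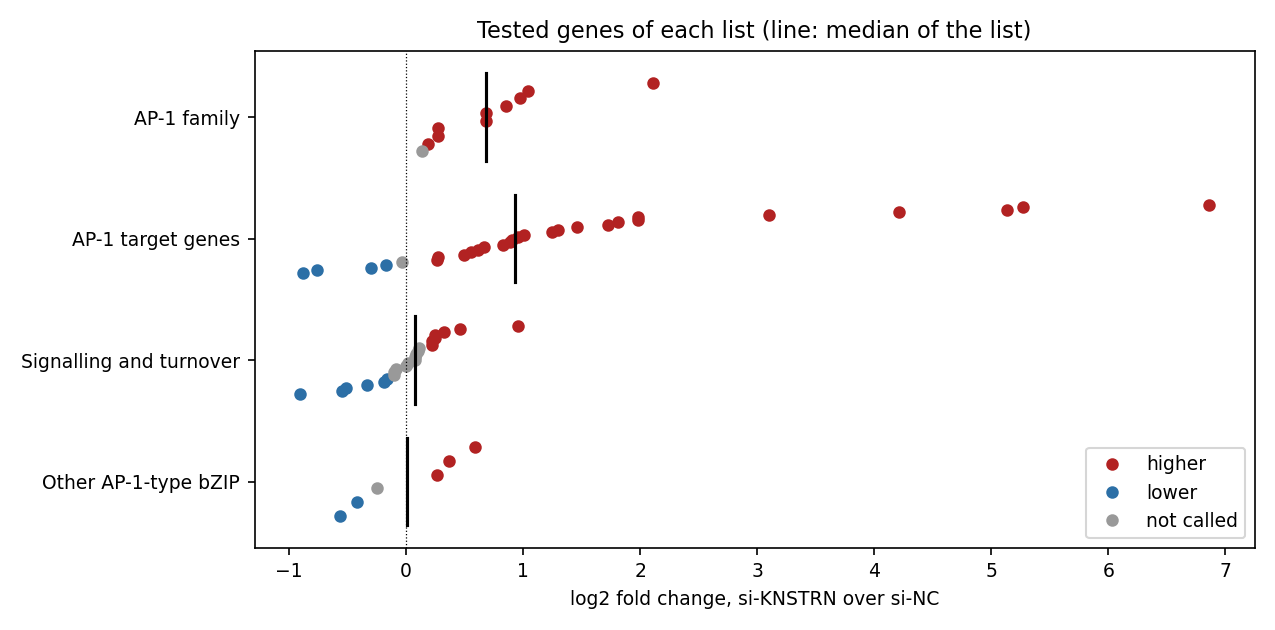
Log2 fold change, si-KNSTRN over si-NC, of each tested gene in the AP-1 family (10 genes), AP-1 target genes (28), signalling and turnover genes (23) and other AP-1-type bZIP genes (6); vertical lines mark list medians, and colours mark genes called higher, lower or not called. The family and its targets lie mostly right of 0, with medians of 0.68 and 0.93, while the other lists straddle it, with medians of 0.07 and 0.01. All lists were written with earlier results of these data known. The targets include MMP3, MMP10 and SPP1, which passed the low-count filter only through si-KNSTRN libraries (target median 0.89 without them).

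Over the 6 libraries, the genes whose log2 CPM followed that of JUNB most closely were TYRO3, SERPINH1 and SPR, chosen from the 10697 genes whose average log2 CPM was 2 or more. Their log2 fold changes were 0.58, 0.61 and 0.78. The libraries form 2 clusters, si-KNSTRN and si-NC, so that such a likeness mostly restates a difference between groups, and 292 genes had a Pearson correlation with JUNB above 0.99.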

How the data were processed

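The authors deposited raw read counts per gene symbol, 1 column per library, with no normalization. The tools, per the submitters' processing notes, were HISAT2 2.0.1 and featureCounts on GRCh38, with fastp 0.20.0 and FastQC 0.11.5; their settings, the strand and the annotation were not given in the sources used here. Groups and replicate numbers came from the sample titles. No replicate pair agreed within sampling noise (chi-square per degree of freedom 2.16 to 10.3), so none was merged.

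From the counts, edgeR 4.0.16 (R 4.3.3) was run with filterByExpr (minimum count 10), TMM scaling and its quasi-likelihood test (two-sided), with fold changes as si-KNSTRN over si-NC. P-values were adjusted by Benjamini-Hochberg over 12650 genes, with calls under 0.05. The test was first run on simulated data with few genes changed and the same dispersion for all genes. That setting differs from these data, where many genes were called, so it is no check of the calls made here. Levels are CPM as mean ± SD (n = 3). The 95% intervals are 1.96 SE to each side, a normal multiple, and so are narrower than the quasi-likelihood test allows for. Intervals and floors cover no error beyond these libraries and counting. Exon lengths and 3′ regions came from GENCODE 29, and coordinates and promoters from RefSeq (GRCh38.p14). Motifs, figures and shares used Python 3.11.15.

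The members and gene lists were chosen with earlier results of these data known. Named genes were the members, KNSTRN, the 4 genes of smallest p in each list (plus 1 in a missing direction) and the 3 most like JUNB; further list genes (such as MAFG, JDP2, SRF, ELK1, ELK3, ELK4, DET1, COP1, MAPK8, MAPK9, CCND1, MMP3, MMP10, SPP1, HBEGF, PLAUR, PLAU, CD44 and EZR) were chosen after their values were seen. Some genes of these rules and lists are not reported here. Alternatives were other scalings, DESeq2 1.42.0, limma-voom (limma 3.58.1), other filters, the replicate block, each library left out and a threshold of 0.01. No whole-protein sequences were used here.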

Additional observations from a re-analysis of the deposited data

How the results depend on the processing

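Across 15 alternatives, 149 of 150 values for the 10 members and all 255 for the other 17 genes chosen by the naming rule kept their direction and their side of the threshold. The exception was JUND, which passed it with library size alone (log2 fold change 0.17), a scaling that moved the median of all genes to 0.03. Counts called in the whole table, the family and each list stayed within 1.5 times the main count under every alternative, with 3284 to 4339 genes called higher and 3221 to 4450 lower. Per plain read instead of per kb, FOSL1 was 85.1% of the FOS subfamily in si-KNSTRN cells and 86.2% in si-NC cells, and JUNB 35.1% of the JUN subfamily in si-KNSTRN cells and 24.6% in si-NC cells. With RefSeq gene lengths, an alternative added after seeing the data, JUNB was 46.6% in si-KNSTRN cells and 34.4% in si-NC cells, and still ahead of JUN only in si-KNSTRN cells (43.2 against 38.2 CPM per kb; 22.0 against 31.7 in si-NC cells). Replicate numbers did not pair the libraries (correlations of same-numbered deviations -0.06, 0.05 and -0.03). With the replicate block, 3831 genes were called higher and 3857 lower, and no call of a member changed. FOS, ATF3 and BATF3 rest on 19 to 93 reads per library, which limits their precision.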
